A study of Mus musculus with 23 samples.

Results

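The 10 genes described here encode enzymes that add methyl groups to lysines of histone H3 or take them off. They were chosen by name, as the rows Setdb1, Ehmt1, Ehmt2, Suv39h1, Suv39h2, Setd2, Kdm1a, Kdm1b, Kdm5b and Kdm3a of an expression table of 22784 gene symbols from mouse germ cells. All 10 rows were found, and all 10 were among the 14242 genes that reached at least 1 FPKM (fragments per kilobase of transcript, scaled to the fragments mapped in the library) in at least 1 of 8 groups. Of the 10 proteins, 6 are writers, which add the mark, and 4 are erasers, which remove it.

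Histone lysine methylation is a reversible mark whose meaning depends on the residue. Methylation of H3 lysine 9 (H3K9) is tied to silent chromatin, methylation of H3 lysine 4 (H3K4) to promoters, and trimethylation of H3 lysine 36 (H3K36) to the bodies of transcribed genes. In growing mouse oocytes, removal of H3K4 methylation and deposition of H3K36 methylation are both known to shape where new DNA methylation is laid down.

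The study followed germ cells made in culture and their counterparts from animals by sequencing of poly(A) RNA, with 23 samples in 8 groups. Culture samples were of the strain cross C57BL/6 X 129 and comprised female embryonic stem (ES) cells kept in 2i and LIF (3 samples), primordial germ cell-like cells (PGCLCs) sorted after 6 days of induction from female epiblast-like cells (2 samples), PGCLCs after 3 days with gonadal somatic cells of female E12.5 embryos (3 samples), oocytes of secondary follicles after 21 days of such reaggregate culture (3 samples) and oocytes at metaphase II (MII), from follicles cultured for 11 days and then matured for 16 hours (3 samples). ICI182780, an estrogen receptor antagonist, was added for part of the 21 days. FSH was given in follicle culture, with BMP15 and GDF9 at first. Animal samples were of the strain B6D2F1 and comprised E12.5 primordial germ cells (PGCs) and secondary follicle oocytes of postnatal day 8, both sorted by the BVSC transgenes, and MII oocytes of females aged 8 weeks (3 samples each). Strain goes with route in every pair of groups, so the effects of strain and culture cannot be told apart.

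Each gene had a single deposited FPKM value for a group, with the samples of the group not shown. No SD, test or replicate check can therefore be given, the depth behind each value is unknown, and a difference is called only by its size, at 2-fold or more on the log2(FPKM + 1) scale. That scale understates differences of genes with low values. Input was 10000 to 13200 cells for ES cells, 10000 for day 6 PGCLCs and 5300 to 15000 for reaggregated PGCLCs. In both routes it was 337 to 812 cells for secondary follicle oocytes and 99 to 134 for MII oocytes. No number was at hand for E12.5 PGCs. Input thus goes with stage, and its part in the values was not tested. All 5 growing oocyte markers were at 1 FPKM or more in the 4 oocyte groups, against at most 2 of 5 in any other group. Summed FPKM over all genes ran between 268720 and 349772 in 6 groups, but came to 616260 in cultured MII oocytes and 975407 in MII oocytes from animals. The summed level of 8 granulosa cell markers was 57.2 FPKM in cultured and 48.1 FPKM in animal MII oocytes, against 7.35 and 8.02 FPKM in cultured and animal secondary follicle oocytes. Its largest member was Cyp19a1 (27.1 and 42.2 FPKM in cultured and animal MII oocytes), with Inha at 19.3 and 2.55 FPKM and Gja1 at 9.72 and 2.94 FPKM. Only these 3 of the 8 markers were at 1 FPKM or more in either MII group. Fshr was listed at 0 in both. In reaggregated PGCLCs the 8 markers summed to 12.8 FPKM, with 5 at 1 FPKM or more. They summed to 2.13 FPKM in E12.5 PGCs and 1.20 FPKM in day 6 PGCLCs, with 0 at 1 FPKM or more in either. ES cells had 20.3 FPKM, of which 14.7 FPKM was Gja1. The part of other cells in the values of any group was not tested. In pooled cells, fewer cells with a message and less message per cell cannot be told apart, and with poly(A) selection neither can the amount of a message and the length of its tail.

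The promoters of 4 genes are shown first, because these genes make up the 2 paralog pairs whose balance differed most between the PGC stage and secondary follicle oocytes. Each is the RefSeq sequence of 250 bases before to 50 bases after the transcription start in GRCm38.p6, written 5′ to 3′ on the strand of the gene, with E-boxes (CANNTG on either strand, the site class of basic helix-loop-helix factors such as FIGLA) in capitals. The windows are chr13:47043249-47043548 on the plus strand for Kdm1b, chr4:136602674-136602973 on the minus strand for Kdm1a, chrX:8074711-8075010 on the minus strand for the first of the 2 listed Suv39h1 starts, and chr2:3474937-3475236 on the minus strand for Suv39h2.
Kdm1b: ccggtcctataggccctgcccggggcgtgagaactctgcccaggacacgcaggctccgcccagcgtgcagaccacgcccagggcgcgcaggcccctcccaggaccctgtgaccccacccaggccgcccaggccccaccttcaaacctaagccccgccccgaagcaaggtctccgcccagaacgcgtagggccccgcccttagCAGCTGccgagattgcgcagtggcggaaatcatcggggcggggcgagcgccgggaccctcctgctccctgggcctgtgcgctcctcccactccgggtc
Kdm1a: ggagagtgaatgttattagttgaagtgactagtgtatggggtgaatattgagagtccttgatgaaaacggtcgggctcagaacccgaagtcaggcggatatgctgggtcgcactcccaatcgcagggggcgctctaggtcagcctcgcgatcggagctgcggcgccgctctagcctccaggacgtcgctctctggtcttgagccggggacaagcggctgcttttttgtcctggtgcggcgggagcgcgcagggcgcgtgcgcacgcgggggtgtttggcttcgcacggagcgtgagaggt
Suv39h1: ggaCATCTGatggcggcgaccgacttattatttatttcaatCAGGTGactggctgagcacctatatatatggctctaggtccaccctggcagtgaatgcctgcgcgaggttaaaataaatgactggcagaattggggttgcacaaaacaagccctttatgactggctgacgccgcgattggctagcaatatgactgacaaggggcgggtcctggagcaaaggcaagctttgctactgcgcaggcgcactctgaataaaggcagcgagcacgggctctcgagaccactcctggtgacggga
Suv39h2: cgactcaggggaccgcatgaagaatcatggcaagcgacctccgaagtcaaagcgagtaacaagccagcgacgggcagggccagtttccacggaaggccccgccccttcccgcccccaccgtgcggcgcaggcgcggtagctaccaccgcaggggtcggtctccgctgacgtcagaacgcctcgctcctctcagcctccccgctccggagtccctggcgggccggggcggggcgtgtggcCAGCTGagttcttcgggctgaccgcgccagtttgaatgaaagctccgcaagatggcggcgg

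The Kdm1b window held 1 E-box, 26 CpG and 6 copies of GGGCGG on either strand, the GC box bound by SP1-type factors, at 72.3% GC. That of Kdm1a held 0 E-boxes, 29 CpG and 0 GC boxes at 61.3% GC. In the Suv39h1 window there were 2 E-boxes, 15 CpG and 1 GC box at 53% GC, and in that of Suv39h2 1 E-box, 33 CpG and 3 GC boxes at 68.3% GC. Of 32851 RefSeq promoter windows of the same length, 72.3% held an E-box and 35.7% a GC box, with a median of 7 CpG and 52.7% GC. The homeobox core TAATTA or TAATTG, present in 12.4% of all windows, and TATAAA, present in 13.6%, were in 0 of the 14 windows of the 10 genes. These matches describe the letters in the windows and are not binding sites.

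The leading writer of H3K9 methylation differed between stages. Summed over the 5 genes, the level was 97.7 FPKM in cultured and 97.5 FPKM in animal secondary follicle oocytes, and 169 FPKM in cultured and 211 FPKM in animal MII oocytes. At the PGC stage it was 139 FPKM for reaggregated PGCLCs and 174 FPKM for E12.5 PGCs. These levels are as deposited. Summed FPKM over all genes was 349451 and 349772 in cultured and animal secondary follicle oocytes, against 616260 and 975407 at MII. With equal sums the level of the 5 genes is therefore not higher at MII than in secondary follicle oocytes in either route. Setdb1 held 56.7% of the sum in cultured and 55.1% in animal secondary follicle oocytes, whereas Suv39h2 was the leading writer at MII with 43.4% in culture and 47.7% in the animal.

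Setdb1 encodes a trimethylase that silences retrotransposons with its partner TRIM28 (chromosome 3, 95323525 to 95357202, minus strand; positions of genes are those of GENCODE M21 for GRCm38). Along culture its level was 26.8 FPKM in ES cells, 24.6 in day 6 PGCLCs, 27.2 in reaggregated PGCLCs, 55.4 in secondary follicle oocytes and 40.2 in MII oocytes. In animals it was 33.2 FPKM in E12.5 PGCs, 53.8 in secondary follicle oocytes and 63.0 in MII oocytes. Setdb1 was thus the least variable of the 10, with 2.56-fold between its lowest and highest group. The largest of its log2 ratios between stages was 1.00 (0.997 before rounding, just within the 2-fold threshold), for secondary follicle oocytes against reaggregated PGCLCs in culture.

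Ehmt1 and Ehmt2 encode GLP and G9a, the partners of a heterodimer that writes most mono- and dimethylation of H3K9 in euchromatin. Ehmt1 (chromosome 2, 24789928 to 24919614, minus strand) had 15.3, 7.57, 12.0, 7.41 and 52.0 FPKM from ES cells to MII oocytes in culture. In the animal it had 14.8 FPKM in PGCs, 8.29 in secondary follicle oocytes and 46.3 in MII oocytes. Its high groups were the MII oocytes of both routes on the values as deposited. Summed FPKM over all genes was 975407 in animal MII oocytes against 277996 in E12.5 PGCs. With equal sums Ehmt1 in animal MII oocytes is therefore below that in E12.5 PGCs.

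Ehmt2 (chromosome 17, 34898469 to 34914052, plus strand) ran the other way. From ES cells to MII oocytes in culture it had 48.1, 44.6, 44.6, 17.6 and 3.16 FPKM. In the animal it had 56.1 FPKM in PGCs, 19.9 in secondary follicle oocytes and 0.825 in MII oocytes. The lowest groups of Ehmt2 were thus the highest of Ehmt1 on the values as deposited.

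Ehmt1 made up 29.7% of the pair's summed FPKM in cultured and 29.4% in animal secondary follicle oocytes, and 94.3% in cultured and 98.3% in animal MII oocytes. At the PGC stage its share was 21.2% for reaggregated PGCLCs and 20.9% for E12.5 PGCs. Ehmt1 was 16.5-fold above Ehmt2 in cultured and 56.1-fold above it in animal MII oocytes. The sum of both genes was 55.2 and 47.1 FPKM in cultured and animal MII oocytes. In reaggregated PGCLCs it was 56.6 FPKM and in E12.5 PGCs 70.9 FPKM. These sums are as deposited, and summed FPKM over all genes was 616260 and 975407 at MII against 268720 and 277996 in those groups. With equal sums the pair is therefore lower at MII than at the PGC stage. The shares and ratios within the pair are the same with equal sums or centring. With quantile normalization the log2 ratio of Ehmt1 over Ehmt2 was 3.10 in cultured and 3.84 in animal MII oocytes. As deposited it was 4.04 and 5.81.

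Suv39h1 and Suv39h2 encode trimethylases of H3K9 at pericentric heterochromatin that can replace each other in mice, where Suv39h2 is known for its expression in the germ line. Suv39h1 (chromosome X, 8061171 to 8074760, minus strand) had 7.85, 37.3, 43.7, 0.231 and 0.394 FPKM from ES cells to MII oocytes in culture. In the animal it had 54.2 FPKM in PGCs, 0.568 in secondary follicle oocytes and 0.0849 in MII oocytes. The level was thus under 1 FPKM in all 4 oocyte groups and at its highest in the PGC stage groups, with 638-fold between its extremes.

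Suv39h2 (chromosome 2, 3455815 to 3475031, minus strand) had 7.91, 11.1, 11.7, 17.1 and 73.5 FPKM from ES cells to MII oocytes in culture. Animal groups had 15.4 FPKM in PGCs, 15.0 in secondary follicle oocytes and 100.5 in MII oocytes. Its share of the pair was 98.7% in cultured and 96.4% in animal secondary follicle oocytes, and 99.5% in cultured and 99.9% in animal MII oocytes. The share was 21.2% for reaggregated PGCLCs and 22.2% for E12.5 PGCs, and in ES cells the pair was near balance, with Suv39h2 at 50.2%.

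**Figure D1:**
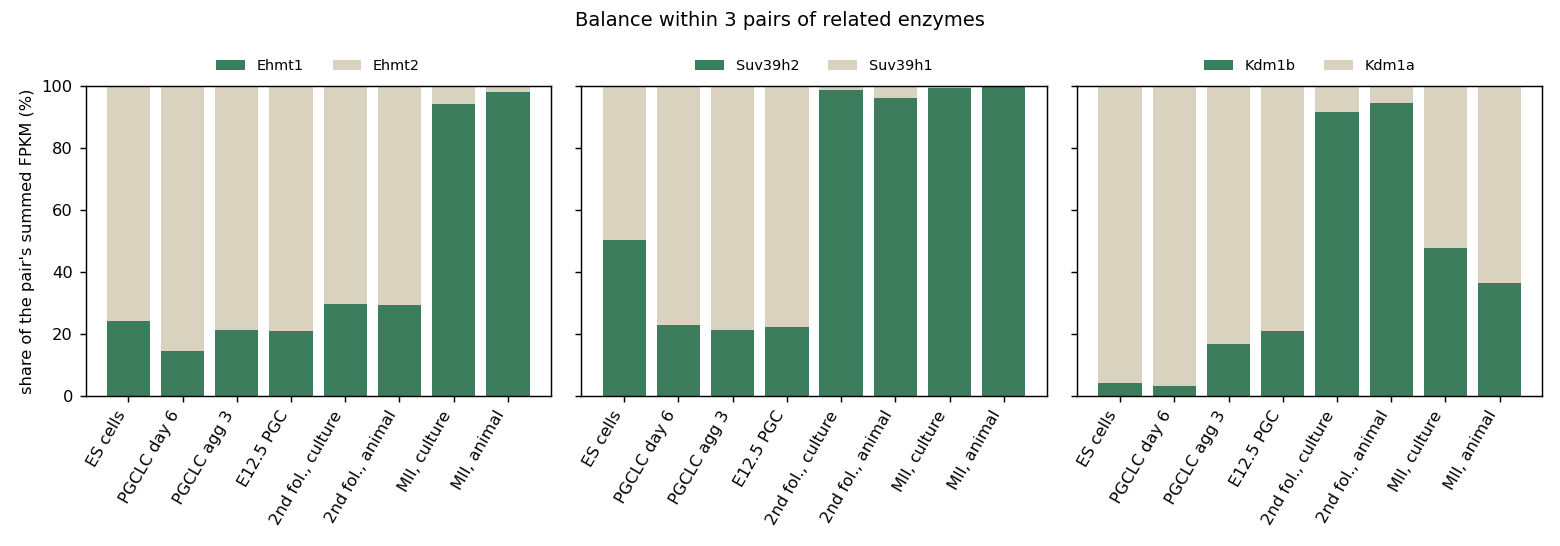
Stacked bars give the share (%) of each gene in the summed FPKM of its paralog pair in each of the 8 groups, with the gene named first in dark green and its paralog in beige. Ehmt1 held 94.3% (culture) and 98.3% (animal) of its pair at MII and under 30% in the other groups, Suv39h2 held at least 96.4% of its pair in all oocytes, and Kdm1b held the larger share in secondary follicle oocytes only.

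Setd2 encodes the enzyme that trimethylates H3K36 behind elongating RNA polymerase II (chromosome 9, 110532597 to 110618633, plus strand). Its level was 25.5, 30.2, 31.9, 16.8 and 38.1 FPKM from ES cells to MII oocytes in culture. In the animal it was 23.7 FPKM in PGCs, 16.6 in secondary follicle oocytes and 141 in MII oocytes. The secondary follicle oocytes were the lowest groups of both routes, and animal MII oocytes were the highest group. Summed FPKM over all genes was 975407 in animal MII oocytes against 268720 in reaggregated PGCLCs. With equal sums the lead of animal MII oocytes over reaggregated PGCLCs is therefore much smaller.

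Among the erasers of H3K4 methylation, Kdm1a had the highest level before oocyte growth, Kdm1b in secondary follicle oocytes, and Kdm1a again at MII. Kdm1a and Kdm1b encode the flavin-dependent demethylases LSD1 and LSD2, which take off mono- and dimethylation. In mice, oocyte Kdm1b is needed to set up DNA methylation of maternally imprinted genes, and maternal Kdm1a for development past the first cleavages. Kdm1a (chromosome 4, 136550540 to 136602723, minus strand) had 83.1, 67.4, 52.5, 17.9 and 95.8 FPKM from ES cells to MII oocytes in culture. Animal groups had 57.5 FPKM in PGCs, 18.2 in secondary follicle oocytes and 218 in MII oocytes.

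Kdm1b (chromosome 13, 47043499 to 47085279, plus strand) had 3.67, 2.21, 10.6, 202 and 87.5 FPKM along the same culture groups. Animal groups had 15.2 FPKM in PGCs, 315 in secondary follicle oocytes and 124 in MII oocytes. Secondary follicle oocytes were thus the highest groups of Kdm1b and the lowest of Kdm1a. Kdm1b ranked at percentile 98.6 in cultured and 99.3 in animal secondary follicle oocytes among the 14242 genes, and at percentile 34.5 in day 6 PGCLCs.

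Kdm1b held 91.9% of the pair in cultured and 94.5% in animal secondary follicle oocytes, 47.7% in cultured and 36.4% in animal MII oocytes, and 16.8% in reaggregated PGCLCs against 20.9% in E12.5 PGCs. Kdm5b encodes a demethylase of di- and trimethylated H3K4 (chromosome 1, 134560171 to 134635285, plus strand). It had 50.5, 19.6, 24.3, 1.54 and 0.733 FPKM from ES cells to MII oocytes in culture. In the animal it had 26.0 FPKM in PGCs, 0.861 in secondary follicle oocytes and 0.222 in MII oocytes, so that all 4 oocyte groups were far below the other 4.

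Kdm3a encodes an eraser of H3K9 mono- and dimethylation, known in mice for its part in spermatogenesis (chromosome 6, 71588972 to 71632990, minus strand). Its level was 22.0, 31.1, 23.5, 1.88 and 4.00 FPKM from ES cells to MII oocytes in culture. Animal groups had 24.2 FPKM in PGCs, 1.55 in secondary follicle oocytes and 7.52 in MII oocytes. The 4 oocyte groups were below the other 4, and within each route MII was above the secondary follicle stage.

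**Figure D2:**
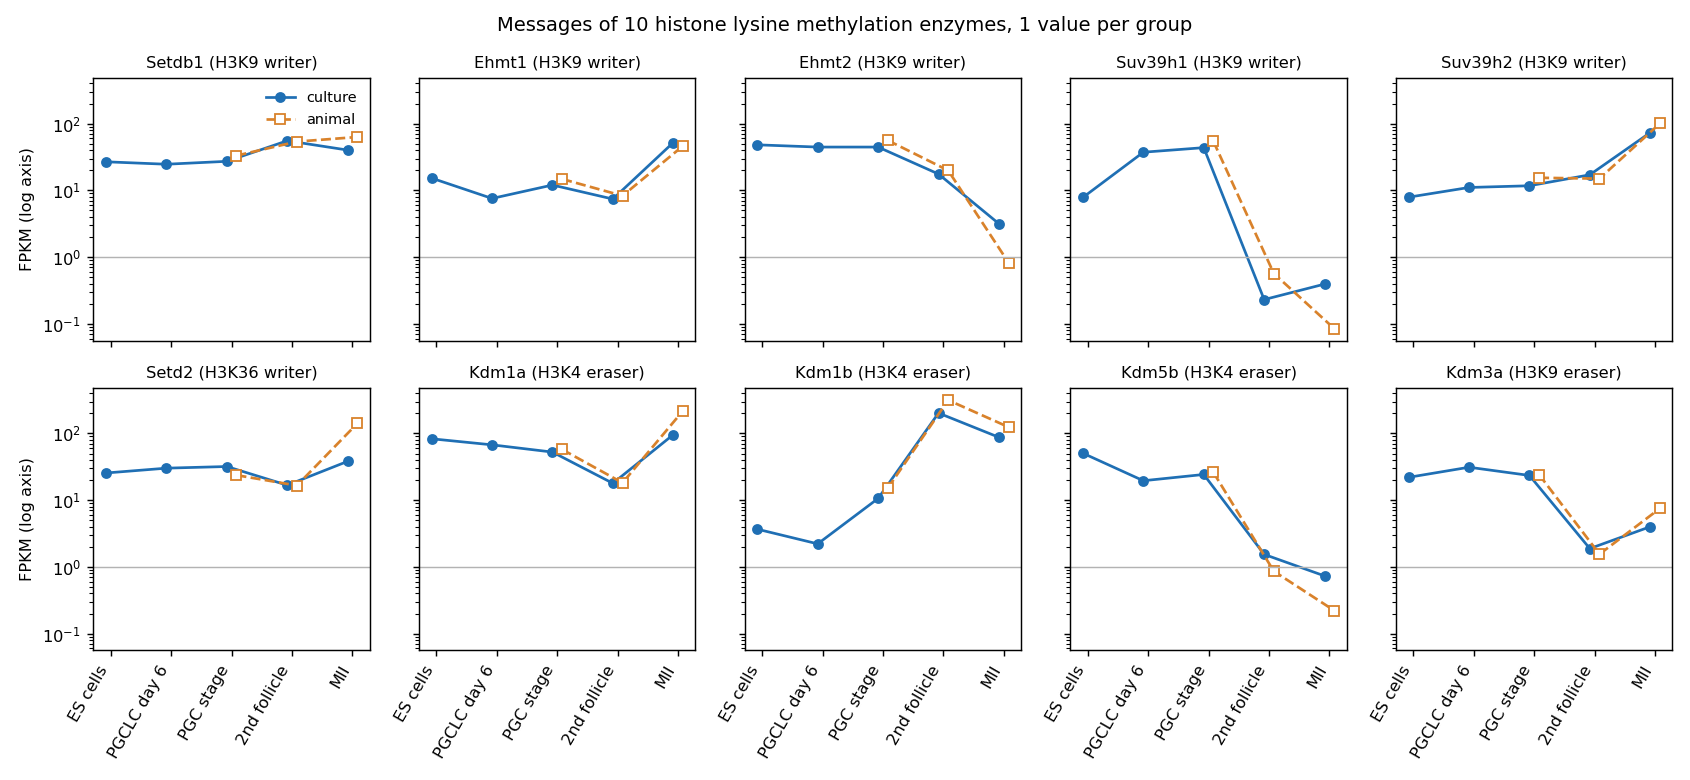
FPKM of each of the 10 genes (log axis) by stage, with culture and animal groups drawn apart and 1 value per group. At MII the culture and animal values lie apart for Setd2 (38.1 against 141 FPKM), Kdm1a (95.8 against 218 FPKM) and Ehmt2 (3.16 against 0.825 FPKM), and, at levels under 1 FPKM, for Suv39h1 (0.394 against 0.0849 FPKM) and Kdm5b (0.733 against 0.222 FPKM).

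Some rows share sequence with other genes. The use of strand in counting was not given in the sources used here, so reads in exons shared with a gene on the other strand cannot be told apart. Kdm1b shared 505 exon bases (9.19%) with Dek, Suv39h2 357 (8.10%) with Dclre1c, and Suv39h1 767 (14.6%) with the antisense Gm14820. Dek had 21.6 and 25.8 FPKM in cultured and animal secondary follicle oocytes, where Kdm1b was at 202 and 315 FPKM. In the other groups Dek was above Kdm1b, at 96.2 FPKM in ES cells, 102 in day 6 and 114 in reaggregated PGCLCs, at 130 in E12.5 PGCs, and at 134 and 189 FPKM in cultured and animal MII oocytes. The part of Dek reads in the Kdm1b values of those groups was not tested. At 95% identity or more over at least 100 bases, 12.8% of the Setdb1 transcript matched Gm37500 or Gm4349. Such matches were 23.5% of Suv39h1, 6.49% of Suv39h2 and 10.1% of Kdm1b, all from the overlapping genes named, and none was found for the other 6.

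At the first induction step, from ES cells to day 6 PGCLCs, 1 of 10 was higher and 1 lower past 2-fold. Of all 14242 genes, 21.6% were past 2-fold, 9.63% higher and 12% lower. Suv39h1 was the gene higher, at 37.3 FPKM in day 6 PGCLCs against 7.85 FPKM in ES cells (log2 ratio 2.11). Kdm5b was the gene lower, at 19.6 against 50.5 FPKM (-1.32). Ehmt1 was nearest to the threshold among the other 8, at 7.57 against 15.3 FPKM (-0.92).

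After 3 days with gonadal cells, 1 of 10 was higher past 2-fold and 0 were lower, relative to day 6, against 5.15% higher and 5.04% lower of all genes (10.2% together). It was Kdm1b, at 10.6 FPKM in reaggregated PGCLCs against 2.21 FPKM in day 6 PGCLCs, a 4.79-fold difference in FPKM and a log2 ratio of 1.85. This ratio ranked 117 from the top of all 14242 genes. The other 9 ranged up to 0.60, for Ehmt1.

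Growth to the secondary follicle oocyte held the most extreme single ratios of the 10 genes, for Suv39h1 and Kdm1b. In culture, against reaggregated PGCLCs, 1 of 10 was higher and 5 were lower, where 51.6% of all genes were past 2-fold, 25.2% higher and 26.4% lower. In the animal, against E12.5 PGCs, 1 was higher and 5 were lower, where 50.2% of all genes were past it, 24.3% higher and 25.9% lower. The gene higher was Kdm1b in both, 19.0-fold in culture (log2 ratio 4.13) and 20.8-fold in the animal (4.29).

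The 5 lower genes were Suv39h1, Kdm5b, Kdm3a, Kdm1a and Ehmt2 in each route. Suv39h1 was 189-fold lower in culture (-5.18) and 95.4-fold lower in the animal (-5.14), with values under 1 FPKM in the oocytes that make the fold imprecise. Kdm5b was 15.8-fold lower in culture (-3.31) and 30.3-fold lower in the animal (-3.86), and Kdm3a had log2 ratios of -3.09 and -3.30. Kdm1a had log2 ratios of -1.50 in culture and -1.61 in the animal, and Ehmt2 of -1.29 and -1.45. The comparisons of the 2 routes share no group.

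The median log2 ratio of the 10 was -1.09 in culture and -1.11 in the animal, against -0.09 over all genes in each. Suv39h2, Setd2, Ehmt1 and Setdb1 were within 2-fold in both routes on the values as deposited. Setd2 had log2 ratios of -0.89 in culture and -0.49 in the animal, and Ehmt1 of -0.63 and -0.76. With equal sums, Setd2 in culture (-1.27) and Ehmt1 in the animal (-1.09) passed 2-fold, and Ehmt1 in culture just reached it. Setd2 in culture also passed with quantile normalization (-1.42), and Setdb1 in culture with centring, with a pseudocount of 0.1 and with none, at up to 1.02.

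**Figure D3:**
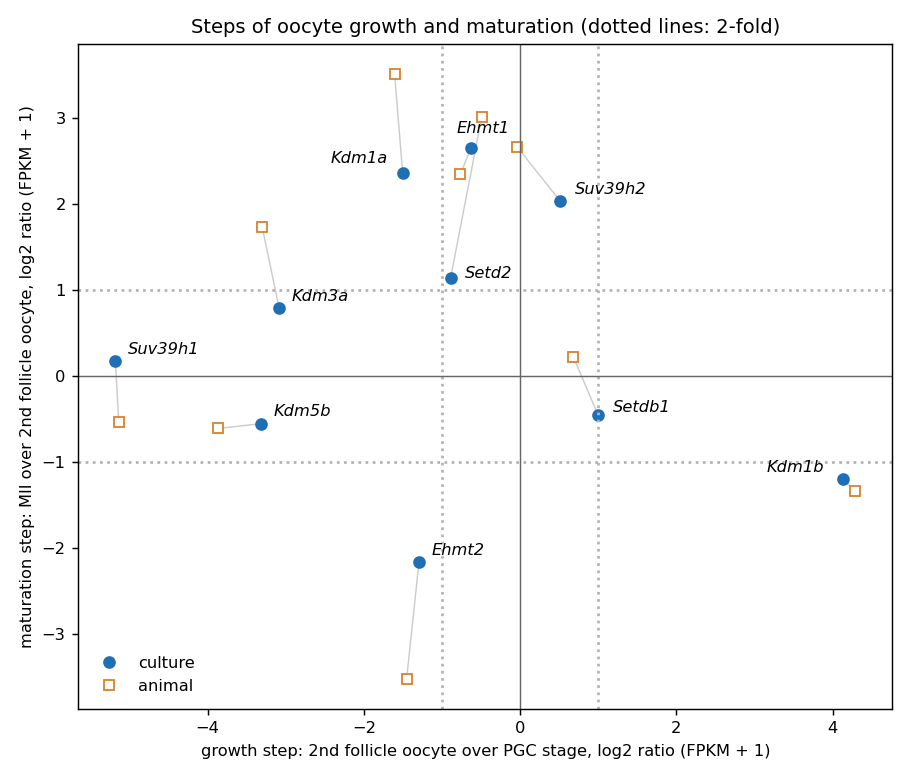
Log2 ratios on the log2(FPKM + 1) scale for growth (x axis, secondary follicle oocytes over the PGC stage) and maturation (y axis, MII over secondary follicle oocytes), with a filled circle (culture) joined to an open square (animal) for each of the 10 genes and dotted lines at 2-fold. Kdm1b lies alone on the right (4.13 and 4.29), Suv39h1 farthest left (-5.18 and -5.14), and Ehmt2 at the bottom (-2.16 and -3.52).

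From the secondary follicle to MII, 4 of 10 were higher and 2 lower in culture, against 52.5% of all genes past 2-fold, 23.9% higher and 28.6% lower. In the animal 5 were higher and 2 lower, against 61.1% of all genes, 28% higher and 33.1% lower. Over all genes 3409 were higher and 4070 lower in culture, a split of 4767 and 2629 after centring on the median and 2131 and 5619 after scaling to equal sums. In the animal 3988 were higher and 4715 lower, with 6089 and 2858 after centring and 2170 and 6499 after equal sums. The median log2 ratio of all genes was -0.08 in culture and -0.09 in the animal, and moved to 0.51 and 0.89 with centring and to -0.50 and -0.74 with equal sums. The median of the 10 was 0.49 in culture and 0.98 in the animal.

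The genes higher in both routes were Kdm1a (5.36-fold in culture and 12.0-fold in the animal), Ehmt1 (7.02-fold and 5.58-fold), Suv39h2 (4.29-fold and 6.70-fold) and Setd2 (2.28-fold and 8.51-fold). With equal sums Setd2 in culture came to a log2 ratio of 0.35, against 1.14 as deposited, and Ehmt1 in the animal to 0.94, against 2.35. Kdm3a was higher past 2-fold in the animal, 4.85-fold with a log2 ratio of 1.74 (0.57 with equal sums), and had 0.80 in culture.

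The lower genes were Ehmt2 and Kdm1b in both. Ehmt2 was 5.56-fold lower in culture (log2 ratio -2.16) and 24.1-fold lower in the animal (-3.52). Kdm1b was 2.31-fold lower in culture (-1.20) and 2.53-fold lower in the animal (-1.33), and after median centring these were -0.61 and -0.35. Setdb1, at -0.45 in culture and 0.23 in the animal, was within 2-fold in both, but came to -1.25 and -1.22 with equal sums and to 0.13 and 1.21 with centring.

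The log2 ratio of maturation had the same sign in culture for all 7 genes called in the animal, and was smaller in size in culture for 6 of the 7 (85.7%). Among all 8703 genes called in the animal the sign was the same for 98.0% and the size smaller in culture for 86.2%, so both counts were near the background. With equal sums 4 of 6 were smaller (66.7%, against 82.9% of all genes), and after centring 7 of 7.

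Culture and animal groups were nearest at the PGC and secondary follicle stages. Between reaggregated PGCLCs and E12.5 PGCs 0 of 10 were past 2-fold, against 2.18% of all genes, 1.39% higher and 0.786% lower. The log2 ratios ran between -0.48 (Kdm1b, 10.6 FPKM in PGCLCs against 15.2 in PGCs) and 0.42 (Setd2, 31.9 against 23.7 FPKM), and 9 of 10 were negative. The median was -0.28, against 0 over all genes.

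Between secondary follicle oocytes of culture and of animals 0 of 10 were past 2-fold, against 2.4% of all genes, 1.74% higher and 0.66% lower. The ratio farthest from 0 was again that of Kdm1b, -0.64, with 202 FPKM in culture against 315 FPKM in the animal. Kdm5b had 0.45, at 1.54 against 0.861 FPKM. Setdb1 had 0.04, Setd2 0.02 and Kdm1a -0.02. With a pseudocount of 0.1, Suv39h1 passed the threshold at -1.01, from 0.231 against 0.568 FPKM.

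Between MII oocytes of culture and of animals 1 of 10 was higher and 2 were lower, 3 in all, against 21.9% of all genes, 12.4% higher and 9.45% lower. Setd2 was lower, 3.70-fold, at 38.1 FPKM in culture against 141 FPKM in the animal (log2 ratio -1.86). This put it at percentile 0.688 of all genes, and it remained past 2-fold after equal sums (-1.19), quantile normalization (-1.07) and centring (-2.25). Kdm1a was 2.27-fold lower, at 95.8 against 218 FPKM (-1.18), but came to -0.52 with equal sums and -0.48 with quantile normalization.

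Ehmt2 was higher in cultured MII oocytes, 3.83-fold, at 3.16 FPKM against 0.825 FPKM in the animal (1.19). It came to 0.85 with quantile normalization, 0.80 with centring and 0.49 with a pseudocount of 5, all within 2-fold. The other 7 were within 2-fold, from -0.77 (Kdm3a, 4.00 against 7.52 FPKM, and past it at -1.16 after centring) to 0.50 (Kdm5b, 0.733 against 0.222 FPKM). The median of the 10 was -0.48, against 0.01 over all genes. Of all genes, 1772 were higher and 1346 lower, with 979 and 3112 after centring and 2385 and 168 after equal sums.

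Setdb1, at 40.2 FPKM in cultured against 63.0 FPKM in animal MII oocytes, had a log2 ratio of -0.64, which was -1.03 after centring and 0.01 with equal sums. For Kdm1b the ratio of -0.50 became 0.15 with equal sums, and for Suv39h2 that of -0.45 became 0.21. The direction of these 3 genes at MII thus turned with the scaling. Ehmt1 also changed sign, at 0.16 as deposited, -0.22 after centring and 0.80 with equal sums. Suv39h1, under 1 FPKM in both groups, had 0.36 as deposited and -0.03 after centring. Setd2 was lower past 2-fold in culture under each scaling and pseudocount tried.

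**Figure D4:**
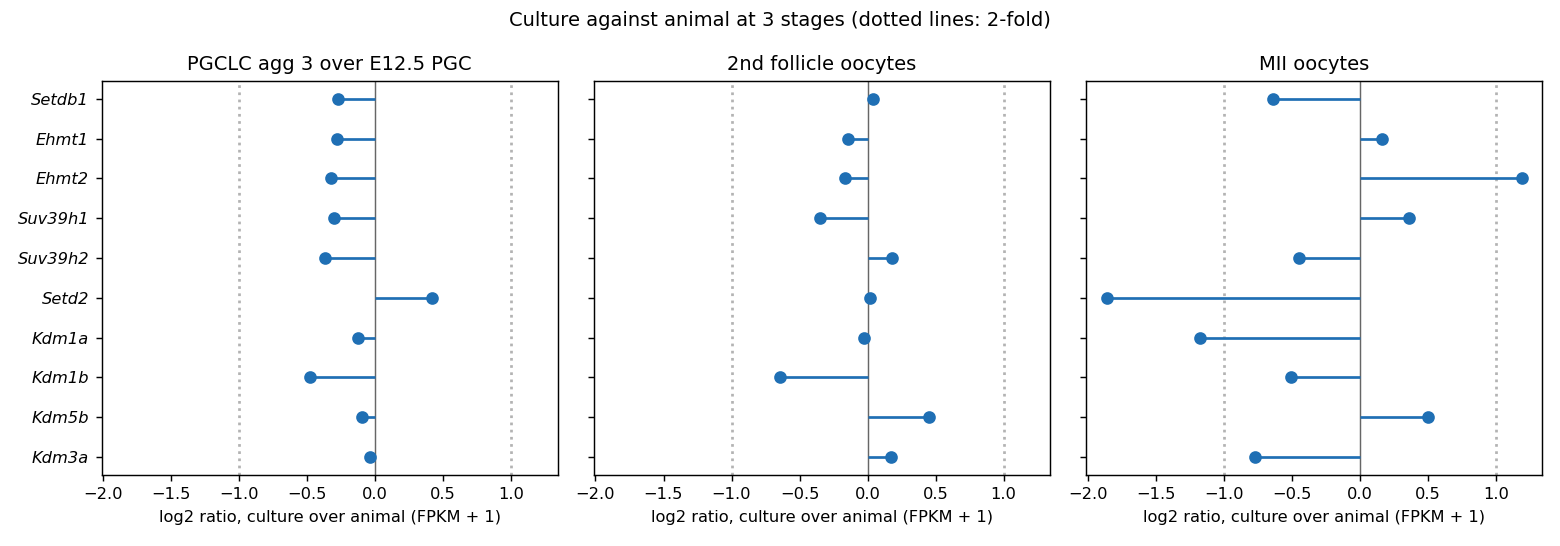
Log2 ratios of culture over animal on the log2(FPKM + 1) scale for the 10 genes at the PGC stage, secondary follicle and MII, with the 2-fold threshold marked. All 10 genes lie within the threshold at the PGC stage and secondary follicle, and Setd2 (-1.86), Kdm1a (-1.18) and Ehmt2 (1.19) lie outside it at MII.

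On the values as deposited, the patterns over the 8 groups fell into recurring shapes. As a description over 8 groups, 4 of which are oocytes, Ehmt2 and Suv39h2 had a Pearson r of -0.96 on the log2 scale, Setdb1 and Kdm1b one of 0.94, and Setd2 and Kdm1a one of 0.88. Suv39h1 correlated at 0.88 with both Kdm5b and Kdm3a, and Kdm1b at -0.91 with Kdm5b and at -0.94 with Kdm3a. No r was recomputed with the scalings, under which levels at MII moved, among them that of Setdb1.

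The genes of most similar pattern, by Pearson r on the values as deposited, were sought among 8982 genes with at least 10 FPKM in at least 1 group. Nearest to Kdm1b were Cnot4 (0.990) and Myo5b (0.987), with 108 genes at 0.95 or more. Nearest to Setd2 were Brms1l (0.995) and Cstf1 (0.978), with 34 such genes, and nearest to Setdb1 Hectd3 (0.988) and Kif14 (0.986), with 27. Shapes shared by many genes were those of Ehmt2, with Ddx1 (0.999) and Alyref (0.998) and 857 genes at 0.95 or more, and of Suv39h2, with Snx9 (0.999) and Ccnyl1 (0.997) and 713 such genes.

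Nearest to Kdm1a were Tardbp (0.996) and Atad5 (0.996), with 136 genes at 0.95 or more, and nearest to Ehmt1 Rims1 (0.991) and Sec22b (0.986), with 69. For Suv39h1 they were Stk17b (0.999) and Nmt2 (0.998), with 198. For Kdm5b they were Rpl27a (0.997) and Jade1 (0.996), with 426, and for Kdm3a Rps15a (0.995) and Rpn1 (0.995), with 108. Pearson r compares shape and leaves out the size of a change. Sec22b ran only between 20.9 and 29.0 FPKM over the 8 groups, where Ehmt1 ran between 7.41 and 52.0 FPKM.

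Other genes of histone lysine methylation were taken from 10 lists of 61 symbols, of which 58 passed the filter. Between cultured and animal MII oocytes 3 were higher and 9 lower of 58 (20.7%, against the 21.9% of all genes). Kmt2d and Kmt2c, writers of H3K4 monomethylation at enhancers, had 64.7 and 90.8 FPKM in culture against 172 and 233 FPKM in the animal. Trim28, the partner of SETDB1, had 323 FPKM in culture against 721 FPKM in the animal. Rcor1, a scaffold of LSD1 complexes, had 84.3 against 171 FPKM. All 4 came within 2-fold with equal sums, at -0.74 for Kmt2d, -0.69 for Kmt2c, -0.49 for Trim28 and -0.36 for Rcor1. Over the 58 genes the count was then 3 higher and 0 lower, and after centring 1 higher and 22 lower.

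The genes higher in cultured MII oocytes, all 3 also with equal sums and only Men1 after centring, were Men1, a subunit of MLL complexes, at 17.1 FPKM against 1.56 FPKM in the animal, Kdm2b, an eraser of H3K36 dimethylation, at 25.1 against 9.20 FPKM, and Phf21a, a reader in LSD1 complexes, at 5.02 against 1.56 FPKM. Kdm2b was also the only one of 58 past 2-fold between secondary follicle oocytes, at 55.8 FPKM in culture against 25.6 FPKM in the animal. Between reaggregated PGCLCs and E12.5 PGCs 0 of 58 were past 2-fold.

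In growth 9 of 58 were higher and 20 lower in culture (50%), and 10 and 20 in the animal (51.7%). In total this was near the share of all genes (51.6% and 50.2%). By direction the 58 had more lower than higher. All genes had 25.2% higher and 26.4% lower in culture, and 24.3% and 25.9% in the animal. With equal sums, 5 of 58 were higher and 25 lower in culture, and 9 and 28 in the animal. All genes then also had more lower, with 3138 and 4982 in culture and 3077 and 4777 in the animal. Kmt2a, an H3K4 trimethylase of the MLL class, had 0.307 FPKM in cultured secondary follicle oocytes against 18.4 FPKM in reaggregated PGCLCs, and 0.112 FPKM in animal secondary follicle oocytes against 27.3 FPKM in PGCs. Hdac1, a deacetylase of LSD1 complexes, had 1.97 against 11.8 FPKM in culture and 1.88 against 16.1 FPKM in the animal. Hdac2, listed with it, was also lower in both routes but remained well above Hdac1. It had 40.5 against 142 FPKM in culture and 46.1 against 167 FPKM in the animal. The genes higher included Setd1b, an H3K4 trimethylase, at 15.7 against 3.29 FPKM in culture and 22.4 against 2.67 FPKM in the animal.

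In maturation 17 were higher and 13 lower in culture (51.7%, against 52.5% of all genes), and 28 and 17 in the animal (77.6%, against 61.1% of all genes). This split turned with the scaling, with 27 higher and 8 lower in culture and 34 and 9 in the animal after centring, and 12 and 19 in culture and 12 and 26 in the animal with equal sums. These scalings of the 58 genes were chosen after their values were seen. Kdm6a, an H3K27 eraser, had 264 FPKM in cultured MII against 7.04 FPKM in cultured secondary follicle oocytes, and 509 against 6.88 FPKM in the animal. Glyr1, the cofactor of KDM1B on nucleosomes, had 12.4 against 58.2 FPKM in culture and 14.7 against 52.2 FPKM in the animal. Kdm5a, a paralog of Kdm5b, had 0.318 against 2.71 FPKM in culture and 0.0895 against 4.71 FPKM in the animal.

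**Figure D5:**
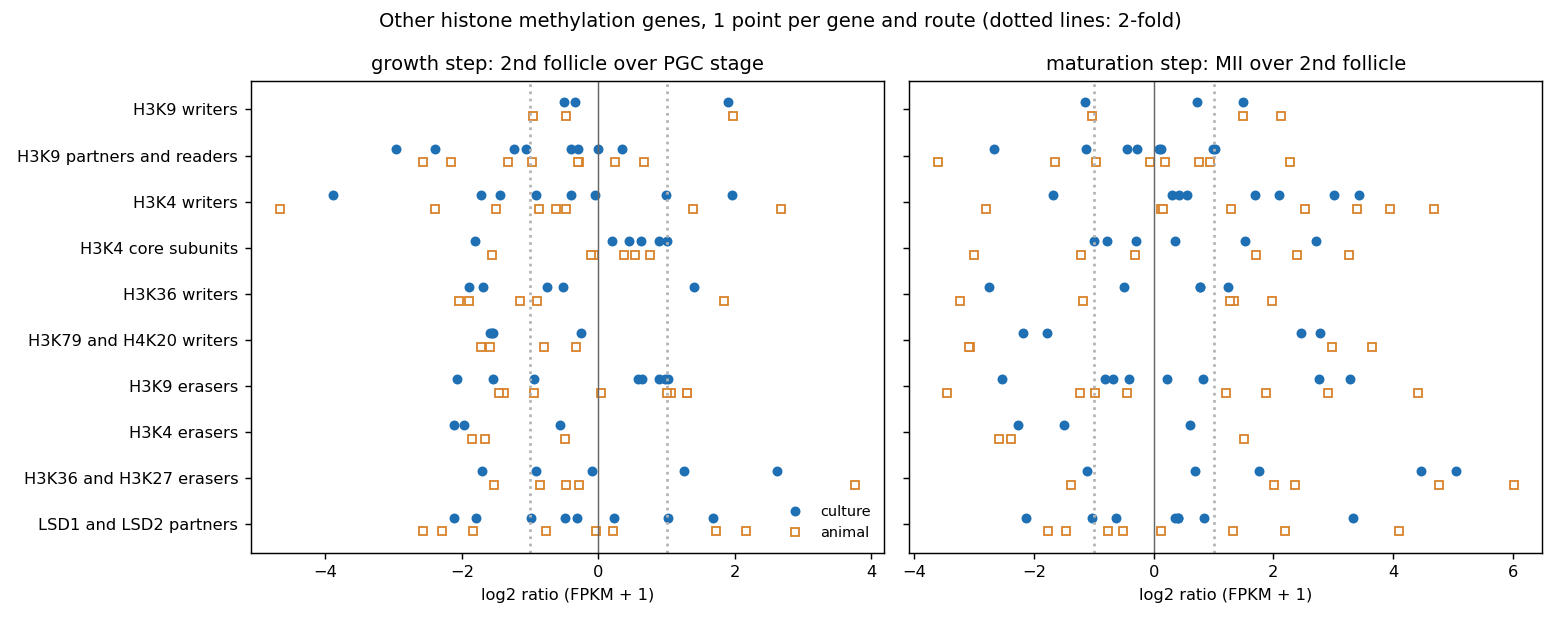
Log2 ratios on the log2(FPKM + 1) scale of the 58 other histone methylation genes, by list, for growth (left) and maturation (right), with filled circles for culture, open squares for the animal and dotted lines at 2-fold. In growth 20 genes lie below the lower line in each route, and in maturation 28 lie above the upper line in the animal against 17 in culture.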

How the data were processed

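Poly(A) RNA of 23 samples was sequenced from directional libraries on a HiSeq2000, per the labels' protocols. TopHat2, Bowtie2 2.0.13, Cufflinks, Cuffdiff 2.2.1 and the mouse genome mm10 are named in the submitters' processing notes. The annotation was not given in the sources used here. The deposited table gives FPKM, as the authors' 1 value per gene and group, for 22784 symbols. FPKM divides by transcript length, so genes can be compared, but read depth is unknown and no interval or floor can be given. The planned tests needed values per sample, so differences were ranked and called by size without a test.

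Values were taken as log2(FPKM + 1) over 14242 genes with at least 1 FPKM in at least 1 group. Calls needed a log2 ratio of at least 1 in size (2-fold), in 9 comparisons: 3 of culture against animal and 6 of consecutive stages. The 10 genes and the 10 lists of related genes were chosen with earlier results of these data known. All 10 genes are named throughout, up to 2 called genes per list and comparison could be named, and so could the 2 genes with the highest Pearson r to each of the 10. Of 61 list symbols, 55 were found as written and 6 by an older symbol.

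Alternatives were quantile normalization, median centring, scaling to equal sums, pseudocounts of 0.1 and 5, no pseudocount, and either no filter or one of 5 FPKM. Coordinates are from GENCODE M21 (GRCm38, the assembly also called mm10), promoters from RefSeq (GRCm38.p6), matched by symbol for 10 of 10 genes in 14 entries. Transcript similarity was computed with BLAST 2.17.0. The steps were tested on simulated data. Software was matplotlib 3.10.9, SciPy 1.17.1, NumPy 2.4.6 and pandas 2.3.3 under Python 3.11.15.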

Additional observations from a re-analysis of the deposited data

Results flagged for a closer look

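For 3 of the 10 genes, a step between stages had opposite signs in culture and in the animal. With 1 value per group none of these differences was tested. For Setdb1 the log2 ratio of MII over secondary follicle oocytes was -0.45 in culture and 0.23 in the animal, a difference of -0.68. Both signs are negative with equal sums (-1.25 and -1.22) and both positive after centring (0.13 and 1.21). For Suv39h1 the same step gave 0.18 in culture and -0.53 in the animal, a difference of 0.71, with all 4 values under 1 FPKM. Here too the signs were alike after centring (0.77 and 0.45) and with equal sums (-0.01 and -0.72). They remained opposite with quantile normalization (0.30 and -0.39) and with pseudocounts of 0.1 and 5. For Suv39h2 the ratio of secondary follicle oocytes over the PGC stage was 0.51 in culture and -0.04 in the animal, a difference of 0.55, and the signs remained opposite under each scaling and pseudocount. Its levels were 17.1 FPKM in cultured secondary follicle oocytes against 11.7 FPKM in reaggregated PGCLCs, and 15.0 FPKM in animal secondary follicle oocytes against 15.4 FPKM in E12.5 PGCs.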

How the results depend on the processing

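Of 527 log2 ratios of the 10 genes recomputed under the pseudocounts and scalings, 489 kept their side of the 2-fold threshold. Another 13 came within it, 24 passed it and 1 changed sign past 2-fold. That ratio was Setdb1 in animal MII over secondary follicle oocytes, -1.22 with equal sums against 0.23 as deposited. Changes of sign within 2-fold are counted among the 489. An example is Kdm1b in cultured over animal MII oocytes, -0.50 as deposited and 0.15 with equal sums. The filters cannot move a ratio, since each is computed from its own gene's values. Between cultured and animal MII oocytes the count past 2-fold was 3, and became 5 with a pseudocount of 0.1, 4 (0 higher, 4 lower) with centring and 1 with quantile normalization. Between secondary follicle oocytes it was 0, and became 1 with a pseudocount of 0.1. These low pseudocount calls were genes under 1 FPKM (Suv39h1 and Kdm5b at MII, Suv39h1 in secondary follicle oocytes), and the precision of such values is unknown. Shares within a paralog pair do not move with equal sums or centring but do with quantile normalization. The cause of the other shifts was not tested.

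No paired analysis was possible because the table holds 1 value per group, although the labels number the replicates alike across groups. For the same reason leaving out each replicate was not run. Depth limits cannot be stated without counts.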
